A study of Mus musculus with 6 samples.

Results

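Traffic between nucleus and cytoplasm passes through nuclear pore complexes, which are built from nucleoporins, and is carried by soluble receptors of the karyopherin family. The genes described here are 50 rows of the count table of the 53733 rows that carry a gene symbol. They were taken by symbol alone: nucleoporins named Nup with a number, importin alpha and beta genes (Kpna and Kpnb), importins (Ipo), transportins (Tnpo), exportins (Xpo and Cse1l), and Ran, Rcc1, Rangap1 and Ranbp1. Both compared groups carried the same leukaemia line, made from mouse foetal liver cells by retroviral transduction with MLL-AF9, expressed constantly from an MSCV vector together with a luciferase, and with FLT3-ITD, an activated receptor tyrosine kinase, under a doxycycline-responsive TRE-tight promoter together with DsRED. NSG mice received leukaemia cells by tail vein and doxycycline in chow and drinking water while the cells engrafted for 96 h. In the OFF group (3 mice) doxycycline was then withdrawn for 48 h to deplete FLT3-ITD, and in the ON group (3 mice) it was continued. The labels give no age or sex of the mice. Live leukaemic cells were taken from the marrow by a sort whose gate the labels do not describe, and their mRNA was sequenced from the 3' end. The line is a single engineered line, and NSG mice, which lack mature lymphocytes, keep their own myeloid and erythroid cells.

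Import receptors bind cargo in the cytoplasm and release it in the nucleus when they meet Ran loaded with GTP, whereas export receptors bind cargo together with Ran-GTP and release it in the cytoplasm. Rcc1, the exchange factor on chromatin, loads Ran with GTP, and Rangap1 with its helper Ranbp1 makes Ran hydrolyse it in the cytoplasm. The pore itself is a scaffold of a Y-shaped complex and an inner ring, held in the envelope by membrane proteins, with nucleoporins rich in phenylalanine-glycine repeats lining the channel and with filaments and a basket on its 2 faces. Growing cells, which import ribosomal proteins and export ribosome subunits in bulk, are known to make heavy use of this machinery.

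After doxycycline was withdrawn to deplete FLT3-ITD, most of these genes were lower and none was called higher. The groups also differ in doxycycline itself, so the drug and the loss of FLT3-ITD cannot be told apart. Of the 50 rows, 47 passed the filter on low counts, and 33 of the 47 were lower in OFF at an adjusted p under 0.05 (edgeR's quasi-likelihood test, adjusted over all 13652 tested rows), against 17.5% of all tested rows lower and 34.8% called in either direction. No member was higher, against 17.3% of all tested rows; none was higher at an unadjusted p under 0.05, by DESeq2, or by limma on the authors' normalised values. The rows matched by the rule summed to 2340, 2059 and 2022 CPM (counts-per-million, with library sizes scaled by the TMM method) in OFF replicates 1 to 3, and to 3171, 3177 and 3222 CPM in ON replicates 1 to 3. Every OFF sum thus lay below every ON sum. In bulk samples such as these, fewer cells of a type and less RNA per cell cannot be told apart.

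The shift was broad rather than deep. The median log2 fold change (OFF minus ON) of the 47 genes was -0.45, with quartiles of -0.67 and -0.31, while the median over all tested rows was 0.00. Of the 47 fold changes, 45 were below 0. At least 1.5-fold lower stood 15 genes (31.9%, against 13.3% of all tested rows), but at least 2-fold lower only 4, which were Rcc1, Ipo4, Xpo4 and Nup153 (8.51%, against 5.65%). For 40 genes all 3 OFF values lay below all 3 ON values, against 24.5% of all tested rows, and for none did they lie above, against 23.8%. Nucleoporins were called lower in 15 of 20 genes (median log2 fold change -0.41), transport receptors in 14 of 23 (median -0.45) and the Ran cycle in 4 of 4 (median -0.83). Left out in turn, 4 of the 6 libraries lowered the count of 33: it was 18 without OFF replicate 2, 19 without ON replicate 2, 20 without ON replicate 3 and 22 without ON replicate 1. In these fits 12.4%, 11.97%, 12.2% and 12.8% of all tested rows were called lower. Without OFF replicate 1 the count was 33 and without OFF replicate 3 it was 34. The authors' normalised values gave 22 of 46 by limma.

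**Figure D1:**
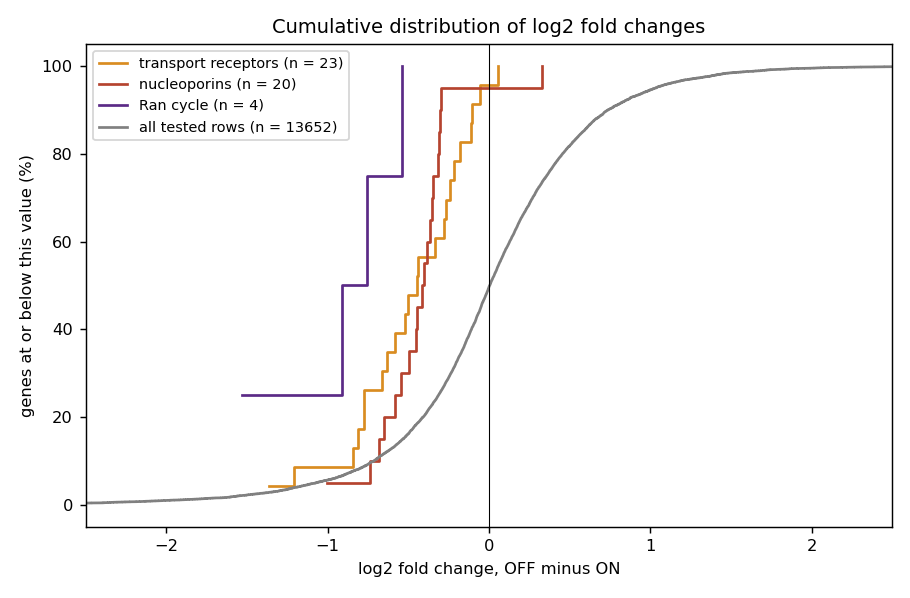
Cumulative share of genes (vertical axis, in percent) at or below each log2 fold change (horizontal axis, OFF minus ON) for 23 transport receptors, 20 nucleoporins, the 4 Ran cycle genes and all 13652 tested rows. The 3 coloured curves lie left of 0 for most of their height, with 1 receptor and 1 nucleoporin above 0.

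Promoter windows are given as a description, and no cause of the members' shared direction was tested. RefSeq windows on GRCm38.p6, each spanning 250 bases before to 50 after an annotated start, were found for 39 members, 37 of them tested. The 4 windows printed here were chosen among those that hold the hexamer CACGTG, a core of the E-box that MYC and MAX bind. They represent Ran itself, the import receptor with the largest drop, and the only members with 2 copies of the hexamer. Only 8 of the 37 tested members with a window hold it, and binding was not tested. Capitals mark matches on either strand to the motifs searched, which were CACGTG, the NRF1 palindrome, CCGGAAGT (an ETS motif) and TGATGCAA (read by ATF4 as part of a composite element). Each window is written 5′ to 3′ on the strand of its gene.
Ran, chr5:129019906-129020205, plus strand: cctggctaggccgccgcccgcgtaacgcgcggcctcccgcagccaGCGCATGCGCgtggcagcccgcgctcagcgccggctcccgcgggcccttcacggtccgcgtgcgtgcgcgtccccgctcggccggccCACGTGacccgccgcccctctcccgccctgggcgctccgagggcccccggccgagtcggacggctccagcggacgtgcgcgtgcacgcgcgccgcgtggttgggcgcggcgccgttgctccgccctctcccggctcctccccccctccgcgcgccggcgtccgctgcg
Ipo4, chr14:55635635-55635934, minus strand: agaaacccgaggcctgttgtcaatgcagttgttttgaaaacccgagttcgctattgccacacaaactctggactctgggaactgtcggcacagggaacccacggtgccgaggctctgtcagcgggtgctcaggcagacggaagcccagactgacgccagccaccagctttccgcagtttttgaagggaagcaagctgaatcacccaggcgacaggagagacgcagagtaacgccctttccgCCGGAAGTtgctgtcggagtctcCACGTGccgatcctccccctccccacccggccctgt
Tnpo2, chr8:85036643-85036942, plus strand: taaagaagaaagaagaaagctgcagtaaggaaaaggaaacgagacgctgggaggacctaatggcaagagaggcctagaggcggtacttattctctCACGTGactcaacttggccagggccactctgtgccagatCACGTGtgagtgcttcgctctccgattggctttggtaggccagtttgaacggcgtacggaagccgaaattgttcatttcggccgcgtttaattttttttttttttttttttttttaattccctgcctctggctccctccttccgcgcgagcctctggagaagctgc
Nup188, chr2:30286166-30286465, plus strand: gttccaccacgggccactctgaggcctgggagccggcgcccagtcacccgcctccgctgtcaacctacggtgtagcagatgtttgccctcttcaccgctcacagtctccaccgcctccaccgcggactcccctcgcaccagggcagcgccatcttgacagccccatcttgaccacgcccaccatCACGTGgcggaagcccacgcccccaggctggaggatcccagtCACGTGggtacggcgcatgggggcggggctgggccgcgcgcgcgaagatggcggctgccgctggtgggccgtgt
The capitals in Ran mark the NRF1 palindrome and then CACGTG, and those in Ipo4 mark CCGGAAGT and then CACGTG, which there lies just after the start site, while Tnpo2 and Nup188 show CACGTG alone.

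The hexamer CACGTG was present in 8 of the 37 tested members with a window (21.6%), against 12.2% of 8724 tested genes and 8.09% of all 27025 genes with windows. These were Ran, Ipo4, Ipo7, Tnpo2, Xpot, Nup54, Nup93 and Nup188, each called lower. They make up 28.6% of the 28 called members with a window, beside 15.99% of the 1601 tested genes called lower. The 9 members with a window that were not called held none. So few members cannot show whether the hexamer goes with the call, and this was not tested. The NRF1 palindrome stood in 5 of 37 members (13.5%, against 2.53% of tested genes), of which Ran, Nup50 and Nup62 were called lower while Nup107 and Xpo5 were not called. CCGGAAGT was about as frequent as elsewhere (10.8% against 10.2%), and TGATGCAA was in none of the 37 genes, against 0.848%. At so low a share, 37 genes are too few to show whether TGATGCAA is rarer among them. Rcc1, Ranbp1, Rangap1, Kpnb1 and Nup153, which also fell, had a window with none of the 4 motifs. The windows of Rcc1 and Rangap1 lie inside the annotated span of the gene, and the outermost start of these genes was not examined. A match is a description of the letters in this window and not of binding; genes with more than 1 window were counted once if any window matched.

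The Ran cycle fell in all of its 4 genes. Rcc1, the exchange factor (GRCm38 chromosome 4, 132331919 to 132353605, minus strand), had 38.1, 33.6 and 31.6 CPM in the OFF libraries and 87.1, 105.5 and 105.4 CPM in the ON libraries. Its groups lay far apart, and with a fall of 1.53 on the log2 scale (SE 0.12, adjusted p = 9.80e-07 by edgeR) it had the largest drop of the 47 genes, 2.88-fold. Ran, the small GTPase that gives transport its direction (chromosome 5, 129020069 to 129024323, plus strand), had 375.5, 321.9 and 333.4 CPM in OFF, against 608.3, 560.3 and 569.0 CPM in ON. It fell by 0.75 on the log2 scale (SE 0.10, adjusted p = 5.73e-05 by edgeR), with no overlap between the groups. Ranbp1, which helps to strip Ran-GTP from receptors (chromosome 16, 18239784 to 18248732, minus strand), had 197.0, 136.4 and 128.9 CPM in OFF and 288.8, 289.0 and 291.1 CPM in ON. The ON values of Ranbp1 were almost equal, while OFF replicate 1 stood well above the other two OFF libraries, and the log2 fold change was -0.91 (adjusted p = 2.27e-04 by edgeR). Rangap1, the GTPase activator, averaged 64.6 ± 5.63 CPM in OFF and 94.0 ± 5.97 CPM in ON (SD, n = 3 each; log2 fold change -0.54). All 4 calls held in every alternative that was run. Rcc1 shares 135 exonic bases with Snhg3 on the same strand, a host gene of small nucleolar RNA, but 16095 bases from the 3' end that this kit reads. Snhg3 changed by -1.39 (adjusted p = 1.99e-06 by edgeR). On the opposite strand, the row Gm17300 shares 19 exonic bases with Rcc1, 20761 bases from the Rcc1 3' end. Gm17300 changed by -1.75 (adjusted p = 8.87e-06 by edgeR).

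**Figure D2:**
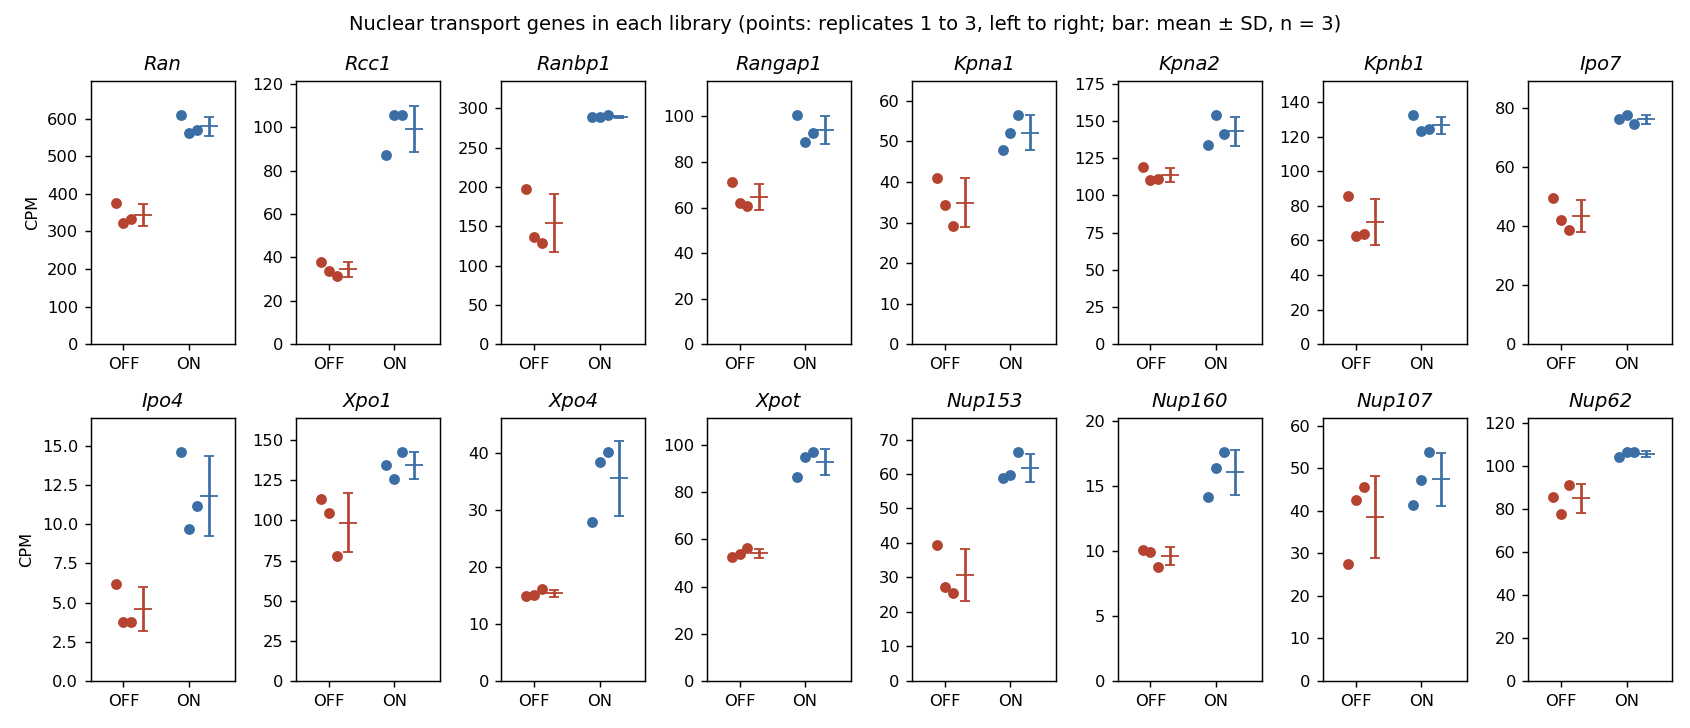
CPM (vertical axis, from 0) in each library for 16 genes, with OFF at the left and ON at the right of each panel; points are replicates 1 to 3 and bars the mean ± SD (n = 3). OFF lies below ON without overlap in every panel shown other than Nup107, whose OFF values reach 45.5 CPM and whose ON values start at 41.3 CPM.

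Importin alpha proteins are the adaptors that recognise classical nuclear localisation signals and hand the cargo to importin beta. In this family 4 of 5 tested genes fell, by moderate amounts (median log2 fold change -0.44, range -0.58 to -0.18). Kpna1 had 41.1, 34.4 and 29.2 CPM in OFF, against 48.0, 52.2 and 56.4 CPM in ON, groups that did not overlap (log2 fold change -0.58 with SE 0.13, adjusted p = 0.00350 by edgeR). Kpna4 had 96.1, 77.4 and 65.9 CPM in OFF and 103.8, 119.1 and 101.5 CPM in ON. For Kpna4 the highest OFF value came close to the lowest ON value, and its log2 fold change was -0.44 (adjusted p = 0.0194 by edgeR). Kpna2, whose protein is abundant in dividing cells, had 118.8, 110.5 and 111.3 CPM in OFF and 134.1, 153.8 and 141.0 CPM in ON, a smaller but complete separation (log2 fold change -0.33, adjusted p = 0.0225 by edgeR). Kpna6 gave -0.50 (adjusted p = 0.0422 by edgeR) and Kpna3 -0.18 without a call (adjusted p = 0.226; 95% interval of the log2 fold change -0.42 to 0.06). Leaving out 1 library ended the Kpna4 call without OFF replicate 2, ON replicate 1 or ON replicate 2 (adjusted p = 0.0818, 0.0512 and 0.116 by edgeR). That of Kpna2 was lost without OFF replicate 2, ON replicate 2 or ON replicate 3 (0.0757, 0.132 and 0.0716), and Kpna6 lost its call in 8 alternatives, among them DESeq2 (adjusted p = 0.0995) and the fits without OFF replicate 2, OFF replicate 3, ON replicate 2 or ON replicate 3 (0.0755, 0.0825, 0.203 and 0.0900). Kpna7 had at most 2 counts in any library and was not tested.

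Kpna2 has near-identical copies in the genome that the table counts as rows of their own. Gm10184, a protein-coding entry of the annotation, shares 978 different 50-base stretches with the last 500 bases of Kpna2 transcripts, and it held 490, 522 and 551 counts in OFF and 697, 728 and 633 counts in ON. These counts equal 53.8% of those of the Kpna2 row over the 6 libraries, so how reads divide between both rows is uncertain. Gm10184 was itself lower in OFF (log2 fold change -0.48, adjusted p = 0.00260 by edgeR), as was the processed pseudogene Gm10259 (-0.78, adjusted p = 0.00365). With the rows of 4 such copies added to Kpna2, its log2 fold change was -0.41 (adjusted p = 0.00525 by edgeR), in an alternative chosen after seeing the data. The row Kpna2-ps, which also matches the naming rule, had 3 to 9 counts per library and did not pass the filter.

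Import receptors of the importin beta family carry cargo through the channel themselves, and 7 of their 11 genes fell, with a median log2 fold change of -0.63. Ipo7, which imports ribosomal proteins and histone H1, had 49.4, 42.0 and 38.7 CPM in OFF, against 76.2, 77.4 and 74.6 CPM in ON. The ON libraries lay within a few CPM of each other and all stood above OFF (SE 0.12 around a log2 fold change of -0.81, adjusted p = 1.01e-04 by edgeR). Kpnb1, importin beta itself (chromosome 11, 97159714 to 97187881, minus strand), had 85.9, 62.6 and 63.6 CPM in OFF and 132.4, 123.2 and 124.7 CPM in ON. OFF replicate 1 was again the highest of its group, and the log2 fold change was -0.84 (adjusted p = 1.63e-04 by edgeR). Ipo4, an importer of histones and ribosomal proteins, was low throughout, at 6.22, 3.79 and 3.74 CPM in OFF and 14.6, 9.68 and 11.2 CPM in ON. Its drop was the largest among receptors (a log2 fold change of -1.37 with SE 0.23, adjusted p = 4.10e-04 by edgeR), at 34 to 56 counts per OFF library.

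Among the transportins, Tnpo2 and Tnpo3 were called lower, Tnpo2 by 0.78 on the log2 scale (adjusted p = 6.02e-04 by edgeR) and Tnpo3, which imports splicing factors rich in serine and arginine, by 0.52 (adjusted p = 0.00223). Ipo5, another importer of ribosomal proteins, had 62.1, 50.2 and 41.1 CPM in OFF and 77.1, 75.6 and 85.5 CPM in ON (log2 fold change -0.63, adjusted p = 0.00240 by edgeR). Ipo11 fell by 0.66 on the log2 scale (adjusted p = 0.0154 by edgeR), a call lost without OFF replicate 2 or ON replicate 1 (0.0551 and 0.0693). Not every importer was called. Ipo9 averaged 19.3 ± 3.08 CPM in OFF and 18.5 ± 2.31 CPM in ON (SD, n = 3 each), with a log2 fold change of 0.06 and a 95% interval of -0.27 to 0.38. Ipo8 and Ipo13 gave -0.11 (interval -0.42 to 0.21) and -0.06 (interval -0.54 to 0.42) with overlapping groups. Tnpo1, the main carrier of RNA-binding proteins with a proline-tyrosine signal, gave -0.21 without a call (adjusted p = 0.125 by edgeR, interval -0.44 to 0.01). Its OFF values nevertheless all lay below its ON values. Tnpo3 shares 411 exonic bases with Irf5 on the opposite strand, 319 bases from the Tnpo3 3' end, and Irf5 changed by -0.61 (adjusted p = 0.00277 by edgeR). The antisense row Gm11583 shares 466 exonic bases with Kpnb1, 1276 bases from its 3' end, and changed by -0.88 (adjusted p = 7.82e-04). No source names the strand setting of the counting, so reads of such pairs cannot be told apart.

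Of the 7 export receptors, 3 fell, and the log2 fold changes of all 7 ran between -1.21 and -0.11 (median -0.28). Xpo4, which exports the translation factor eIF5A and SMAD3, had 14.99, 15.1 and 16.1 CPM in OFF, against 28.0, 38.5 and 40.2 CPM in ON. The OFF libraries agreed closely and stood far below ON (a log2 fold change of -1.21 with SE 0.15, adjusted p = 2.90e-05 by edgeR), a 2.31-fold drop. Xpot, the exporter of transfer RNA, had 52.4, 53.9 and 56.2 CPM in OFF and 86.3, 94.8 and 97.0 CPM in ON. It fell by 0.77 on the log2 scale (SE 0.11, adjusted p = 6.90e-05 by edgeR), again with narrow groups that did not overlap. Xpo1, also called CRM1, which carries leucine-rich export signals and the ribosome subunits, had 113.3, 104.6 and 78.0 CPM in OFF and 134.3, 126.0 and 142.7 CPM in ON. Its OFF replicate 3 was the lowest, and its log2 fold change of -0.45 (adjusted p = 0.0164 by edgeR) lost its call without ON replicate 1 or ON replicate 3 and in the authors' normalised values (adjusted p = 0.0594, 0.0802 and 0.0871).

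The other 4 exporters were not called. Cse1l, which returns importin alpha to the cytoplasm, averaged 49.4 ± 2.37 CPM in OFF and 58.3 ± 0.938 CPM in ON (SD, n = 3 each; log2 fold change -0.24, adjusted p = 0.0900 by edgeR). Xpo5, the exporter of precursor microRNA, gave -0.28 (adjusted p = 0.0778) and Xpo7 -0.27 (adjusted p = 0.0691). For these 3 genes OFF lay below ON without overlap, and their unadjusted 95% intervals were -0.46 to -0.02, -0.53 to -0.03 and -0.50 to -0.04. Xpo5 and Xpo7 passed without OFF replicate 3 (adjusted p = 0.0158 and 0.0268 by edgeR). Xpo6, the exporter of actin with profilin, gave -0.11 with overlapping groups (interval -0.38 to 0.15). Whether the exporters that fell differ in fold change from those that were not called was not tested.

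**Figure D3:**
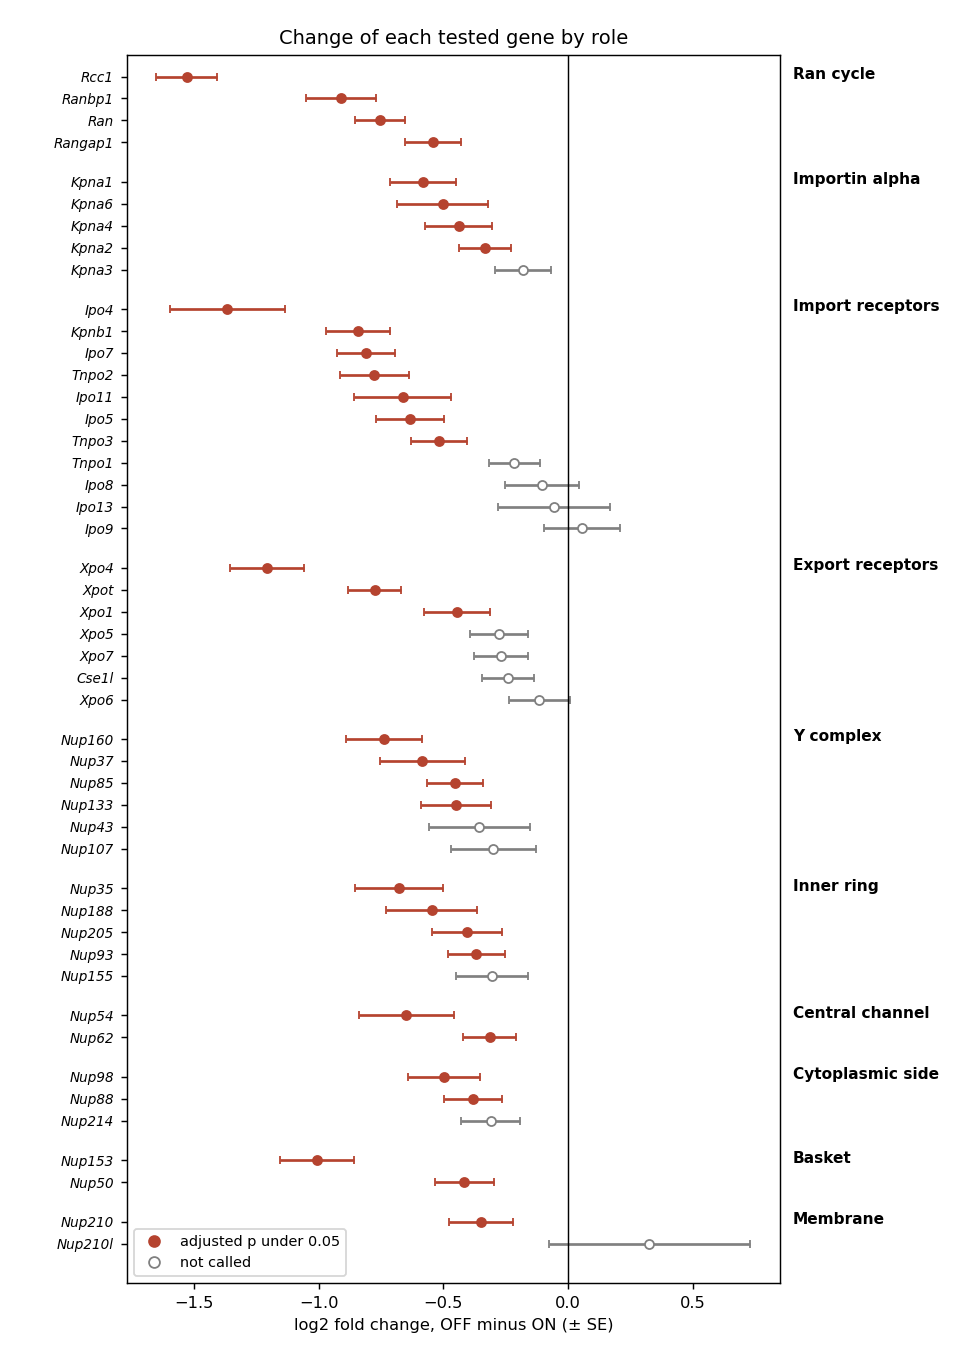
Log2 fold change (horizontal axis, OFF minus ON) with its SE for each of the 47 tested genes, grouped by role; filled points have an adjusted p under 0.05 and open points were not called. Filled points run from Rcc1 at -1.53 to Nup62 at -0.31, and Ipo9 (0.06) and Nup210l (0.33) are the points right of 0.

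In the scaffold of the pore, 8 of 11 genes fell, with log2 fold changes of all 11 between -0.74 and -0.30. The Y complex, which forms the outer rings and also seeds pores on chromatin after mitosis, fell in 4 of 6 genes (median log2 fold change -0.45), and the inner ring in 4 of 5 (median -0.41). Nup160 had 10.1, 9.91 and 8.80 CPM in OFF, against 14.2, 16.4 and 17.6 CPM in ON (log2 fold change -0.74 with SE 0.15, adjusted p = 0.00173 by edgeR). Nup85 had 34.9, 30.7 and 31.7 CPM in OFF and 44.1, 42.8 and 46.4 CPM in ON, with tight groups that did not overlap (log2 fold change -0.45, adjusted p = 0.00575 by edgeR). Nup37 had 9.44, 10.2 and 14.9 CPM in OFF and 17.5, 17.1 and 17.2 CPM in ON. Its ON values were almost equal and OFF replicate 3 was the highest of its group, unlike for most members (log2 fold change -0.58, adjusted p = 0.0152 by edgeR). Nup133 gave -0.45 (adjusted p = 0.0219). Nup107 and Nup43 were not called, at -0.30 and -0.36 (adjusted p = 0.194 each by edgeR). For Nup107, OFF replicate 1 stood alone, with 27.4, 42.5 and 45.5 CPM in OFF and 41.3, 47.2 and 53.8 CPM in ON.

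Inner ring genes, whose proteins link the scaffold to the membrane and channel, included Nup35 with 6.66, 6.91 and 6.16 CPM in OFF and 9.94, 11.96 and 9.68 CPM in ON (log2 fold change -0.68, adjusted p = 0.00757 by edgeR). Nup93, the hub that anchors the channel, had 39.1, 45.9 and 47.4 CPM in OFF, against 54.8, 54.7 and 61.4 CPM in ON (-0.37, adjusted p = 0.0226). Nup188 had 9.55, 6.13 and 9.02 CPM in OFF and 11.5, 12.6 and 11.9 CPM in ON (-0.55, adjusted p = 0.0304). In each of these 3 genes every OFF library lay below every ON library. Nup205 gave -0.41 (adjusted p = 0.0337 by edgeR) and Nup155, whose groups overlapped, -0.31 (adjusted p = 0.116). Most scaffold calls were not firm: those of Nup37, Nup133, Nup35, Nup93, Nup188 and Nup205 were each lost in 1 to 7 of the alternatives, whereas those of Nup160 and Nup85 held in all. Without OFF replicate 2 the calls of Nup37, Nup133, Nup93, Nup188 and Nup205 ended (adjusted p = 0.0799, 0.0854, 0.0507, 0.131 and 0.0900 by edgeR), and without ON replicate 2 those of the same genes and Nup35 (0.0550, 0.0795, 0.0614, 0.113, 0.185 and 0.0562). Nup133, Nup93, Nup188 and Nup205 also lost theirs without ON replicate 3 (0.0708, 0.117, 0.0780 and 0.0782), Nup37, Nup133, Nup93 and Nup188 without ON replicate 1 (0.0586, 0.0554, 0.0581 and 0.0705), and Nup93 and Nup205 without OFF replicate 1 (0.0559 and 0.0679), while Nup155 was called there (0.0186). The Nup35 row has a copy, Gm4353, with 36.6% of its counts, and adding copies gave -0.62 (adjusted p = 0.00780 by edgeR).

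Basket, channel and cytoplasmic nucleoporins, many with the repeats that receptors bind, followed. Nup153, the basket protein that docks import complexes and mRNA (chromosome 13, 46679905 to 46727940, minus strand), had 39.3, 27.2 and 25.6 CPM in OFF, against 58.9, 59.8 and 66.4 CPM in ON. It was the only nucleoporin at least 2-fold lower (log2 fold change -1.01 with SE 0.15, adjusted p = 1.38e-04 by edgeR), with OFF replicate 1 above the other two, and its call held in every alternative. Nup50, its partner in releasing importin alpha cargo, had 79.5, 67.4 and 60.5 CPM in OFF and 89.8, 90.1 and 96.8 CPM in ON (log2 fold change -0.42, adjusted p = 0.0131 by edgeR). Nup54, of the channel, had 18.1, 13.8 and 9.24 CPM in OFF and 22.0, 21.4 and 21.1 CPM in ON. Here the OFF libraries were spread widely while ON hardly varied (log2 fold change -0.65 with SE 0.19, adjusted p = 0.0169 by edgeR). A processed pseudogene of Nup54, Gm15790, held 52.5% as many counts, at 93, 63 and 34 counts in OFF and 114, 89 and 91 counts in ON, and thus kept the same order of OFF libraries. With those counts added, Nup54 gave -0.67 (adjusted p = 0.0336 by edgeR).

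Nup62, the central repeat protein, had 85.96, 78.0 and 91.3 CPM in OFF, against 104.3, 106.5 and 106.7 CPM in ON, groups that did not overlap (log2 fold change -0.31). This was the smallest change among the called genes. Nup98, whose transcript also encodes the scaffold protein Nup96, had 13.8, 11.6 and 11.0 CPM in OFF and 16.8, 17.1 and 17.5 CPM in ON (-0.50, adjusted p = 0.0145 by edgeR). Nup88 had 45.5, 45.3 and 54.6 CPM in OFF and 61.1, 59.9 and 68.5 CPM in ON (-0.38, adjusted p = 0.0193). Its partner on the cytoplasmic face, Nup214, narrowly missed the threshold with 35.2, 33.3 and 28.6 CPM in OFF and 40.1, 39.6 and 40.7 CPM in ON (-0.31, adjusted p = 0.0516). The ON values of Nup214 were almost equal, and OFF lay below them; without OFF replicate 1 it was called (adjusted p = 0.0212). Of the membrane nucleoporins, Nup210 had 28.2, 23.2 and 24.8 CPM in OFF and 31.9, 35.8 and 29.3 CPM in ON (-0.35, adjusted p = 0.0459 by edgeR), a call lost in 10 alternatives, with adjusted p of 0.161 without OFF replicate 2 and of 0.1101, 0.213 and 0.0577 without ON replicates 1, 2 and 3. Nup210l, known from testis, had 3.78, 1.78 and 1.21 CPM in OFF and 2.1698, 1.59 and 1.61 CPM in ON. It had the highest fold change of all members without a call (0.33, interval -0.54 to 1.19), and OFF replicate 1 alone stood above ON. Nup62cl had no count in any library. Without OFF replicate 2, calls ended for Nup50, Nup54, Nup62, Nup98 and Nup88 (adjusted p = 0.0568, 0.0652, 0.121, 0.0559 and 0.0866 by edgeR). Without ON replicate 3 they ended for the same genes (0.0696, 0.0507, 0.104, 0.0558 and 0.109), without ON replicate 2 for Nup54, Nup62, Nup98 and Nup88 (0.0581, 0.108, 0.0521 and 0.0502), and without ON replicate 1 for Nup54, Nup62 and Nup88 (0.0641, 0.0852 and 0.0543).

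Libraries varied more among OFF mice than among ON mice, for the members and across the whole table. The members' median coefficient of variation of CPM was 10.9% in OFF and 6.67% in ON, and it was larger in OFF for 35 of the 47 genes (74.5%). Over all 13652 tested rows the medians were 14.9% in OFF and 9.52% in ON, and the OFF value was the larger for 68.3% of rows. OFF replicate 1 gave the highest OFF value for 32 genes, and OFF replicate 3 the lowest for 23. Relative to the mean of the ON libraries, the median gene stood at -0.34, -0.53 and -0.61 on the log2 scale in OFF replicates 1 to 3 and at -0.02, 0.00 and -0.02 in ON replicates 1 to 3. Each OFF library thus showed the shift, with replicate 1 the mildest.

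**Figure D4:**
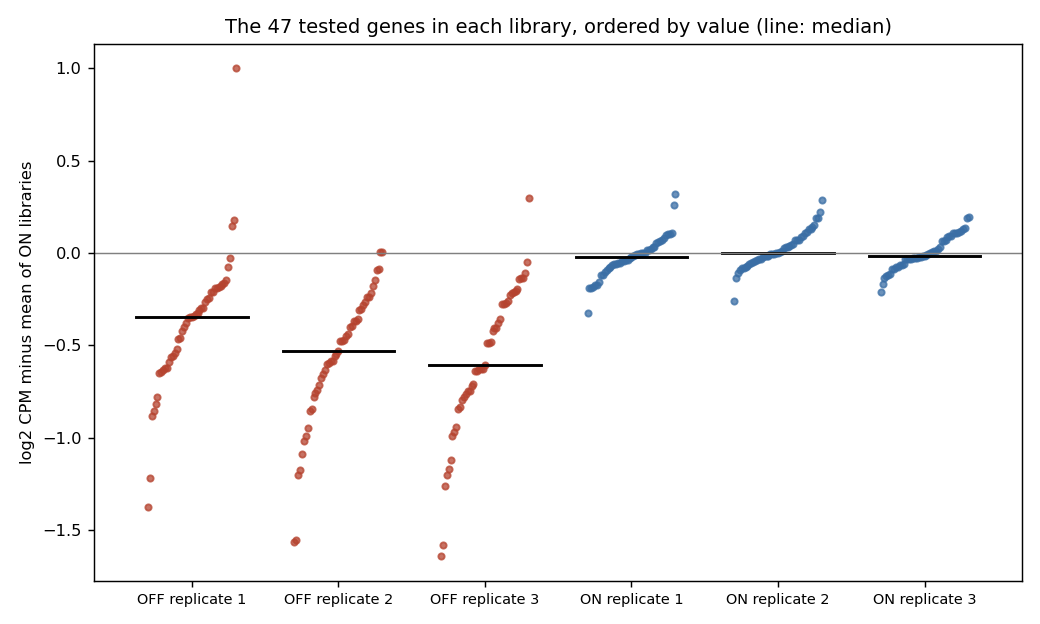
Log2 CPM of each of the 47 tested genes minus its mean in the ON libraries (vertical axis), in each library (horizontal axis), with the genes ordered by value and a line at the median. The 3 OFF medians lie between -0.61 and -0.34 and the 3 ON medians between -0.02 and 0.00; the top point of OFF replicate 1 is Nup210l.

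Marker lists moved too. In OFF, 7 of 8 neutrophil markers were higher, with sums of 3472 to 8161 CPM in OFF and 2345 to 2505 CPM in ON, and 4 of 7 monocyte and macrophage markers were higher and Vcam1 lower, with C1qa and C1qb near 0 and sums of 302 to 585 CPM in OFF and 123 to 164 CPM in ON. Erythroid markers summed to 370.3 to 598 CPM in OFF and 92.4 to 133 CPM in ON, with 4 of 7 higher (the globins Hba-a1, Hbb-bs and Hbb-bt, and Alas2), whereas Klf1 and Epor stayed under 1 CPM in every library. The markers listed for the leukaemic cells were Ptprc, Mpo, Elane, Ctsg, Prtn3, Hoxa9, Hoxa10 and Meis1. They were present in all libraries, 5 of them higher and Ctsg lower, and summed to 4140 to 4424 CPM in OFF and 2515 to 2898 CPM in ON. Whether their reads came from leukaemic or from host myeloid cells was not tested. Sums of megakaryocyte, B cell, T and NK cell, and stromal and endothelial markers were at most 4.29 CPM, with Cd8a and Lepr at 0. The part of these markers in the lower values of the nuclear transport genes was not tested. Total counts were 8729496 to 9329917 in OFF and 8347588 to 8810022 in ON. The rows of the ribosomal RNA locus held 10.1% to 17.9% of counts in OFF and 11.3% to 16.2% in ON. Leaving them out gave 32 members lower, beside 16.7% of all tested rows.

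Genes of the same machinery that the naming rule does not take were counted separately. Their counts stand beside 17.5% of all tested rows called lower and 17.3% called higher. Of 13 other pore genes, 7 fell and none rose (none at an unadjusted p under 0.05 by edgeR, and none by DESeq2 or limma), with a median log2 fold change of -0.41. Those with the smallest p were Rae1, an mRNA export factor at the pore (45.9 CPM in OFF and 74.7 CPM in ON, -0.70, adjusted p = 1.75e-04 by edgeR), the membrane protein Pom121 (-0.81, adjusted p = 1.83e-04) and the membrane protein Ndc1 (-0.61, adjusted p = 5.43e-04). Tpr, the basket's coiled-coil filament, and Ranbp2, the large cytoplasmic filament protein, gave -0.26 and -0.36 without a call (adjusted p = 0.167 and 0.137). The count of 7 was 4 without ON replicate 2 or ON replicate 3.

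Among 12 transport cofactors and cargo adaptors, 7 fell and none rose by edgeR (none at an unadjusted p under 0.05, and none by DESeq2 or limma), with a median of -0.43. Nmd3, the adaptor that joins the large ribosome subunit to Xpo1, stood at 16.7 CPM in OFF and 31.3 CPM in ON (log2 fold change -0.91, adjusted p = 9.58e-05 by edgeR). Rangrf, a Ran-binding protein, gave -1.45 (adjusted p = 2.33e-04). Nutf2, the carrier that returns Ran-GDP to the nucleus, stood at 121 CPM in OFF and 185 CPM in ON (-0.61, adjusted p = 5.59e-04). The small nuclear RNA export adaptor Phax gave -0.08 without a call (adjusted p = 0.664).

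mRNA export genes, which work with a Ran-independent receptor, fell in 8 of 18, with a median log2 fold change of -0.32. None was called higher by edgeR or DESeq2; 1 was higher at an unadjusted p under 0.05, and 1 by limma on the authors' normalised values. Mcm3ap, the scaffold of the TREX-2 complex, gave -0.81 (adjusted p = 4.27e-05 by edgeR), and the TREX subunits Thoc1 and Thoc7 gave -0.59 and -0.54 (adjusted p = 0.00117 and 0.00134). Nxf1, the receptor itself, stood at 75.6 ± 12.7 CPM in OFF and 74.3 ± 3.91 CPM in ON (SD, n = 3 each; log2 fold change 0.02, 95% interval -0.24 to 0.29). The count of 8 was 5 without OFF replicate 2, ON replicate 2 or ON replicate 3, 4 without ON replicate 1, and 5 in the authors' normalised values.

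The envelope list stood near all tested rows, of which 17.5% were called lower and 17.3% higher (median log2 fold change 0.00). The SUMO and G2/M lists had medians below 0, at -0.21 and -0.19. Fold changes were below 0 for 6 of 8 SUMO genes and 9 of 12 G2/M genes. All 3 OFF values lay below all 3 ON values for 4 of 8 and 5 of 12, against 24.5% of all tested rows. Of 15 lamina, LEM-domain, LINC and other nuclear envelope genes, 2 fell and 2 rose, with a median of 0.07. Syne1 and Sun2, which link the nucleus to the cytoskeleton, rose by 0.85 and 0.59 on the log2 scale (adjusted p = 3.59e-04 and 0.00145 by edgeR). Banf1 and Emd, which act together at the inner membrane, gave -0.47 and -0.31 (adjusted p = 0.00320 and 0.0358), and 1 gene was lower without OFF replicate 2 or without any single ON library. Of 8 SUMO pathway genes, 2 fell, Uba2 and Sae1, the subunits of the SUMO activating enzyme (-0.52 and -0.38, adjusted p = 0.00472 and 0.0127 by edgeR). None of the 8 was called higher by edgeR, DESeq2 or limma, and 1 was higher at an unadjusted p under 0.05. Without OFF replicate 2 or ON replicate 1, 1 SUMO gene was lower, and without OFF replicate 1, 1 was higher. Of 12 G2/M genes, 1 fell, Bub1 (-0.39, adjusted p = 0.0192 by edgeR), followed by Ccna2 and Ccnb1 at -0.25 and -0.26 (adjusted p = 0.0660 and 0.0744). None of the G2/M genes was called higher by edgeR (none at an unadjusted p under 0.05), DESeq2 or limma. Without OFF replicate 3, however, the edgeR counts were 5 lower and 3 higher, beside 19.3% of all tested rows lower. Without OFF replicate 1 there were 2 lower, beside 19.6% of all tested rows. Without OFF replicate 2, ON replicate 1 or ON replicate 3 there were 0 lower, beside 12.4%, 12.8% and 12.2%. No difference between lists was tested.

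**Figure D5:**
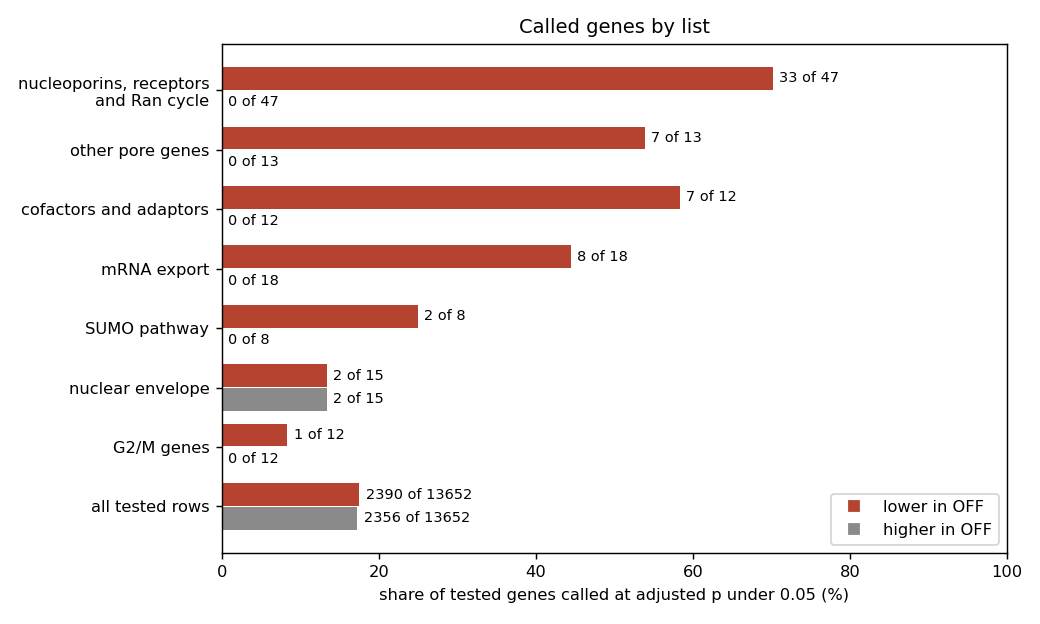
Share of tested genes called lower or higher in OFF (horizontal axis, in percent, adjusted p under 0.05 by edgeR) for the nucleoporins, receptors and Ran cycle, for 6 related lists and for all tested rows. The first bar reaches 33 of 47 and the bars of all rows 2390 and 2356 of 13652; the nuclear envelope list has 2 of 15 in each direction.

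Of the other called members, 3 share exonic bases with a neighbour that was itself called. Nup88 shares 48 exonic bases at its 3' end with Rabep1, a gene of the other strand that gave -0.48 (adjusted p = 0.00642 by edgeR). Nup62 shares 82 exonic bases with Atf5 on the opposite strand, 14329 bases from the Nup62 3' end. Nup133 shares 461 exonic bases with the antisense row Gm29773, 1927 bases from its 3' end, and that row gave -0.58 (adjusted p = 0.0253 by edgeR).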

How the data were processed

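The samples were 6 libraries of sorted leukaemic cells, 3 OFF and 3 ON, grouped by their titles. Per the labels' protocols, a Lexogen QuantSeq kit primed libraries at 3' ends, so a count reflects reads near a 3' end. The authors deposited raw counts per gene made with HISAT2 2.0.4 and featureCounts of Subread 1.6.3 on build mm10, per the submitters' processing notes. Annotation, strand setting and multi-mapping treatment are not stated there. A second deposited table holds normalised log2 values of 12287 genes (limma 3.42.2, per the submitters' processing notes) and served as an alternative. Of 54838 rows, 1105 have no name (0.145% to 0.172% of counts) and entered neither library sizes nor tests.

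In R 4.3.3, edgeR 4.0.16 kept 13652 rows by filterByExpr (minimum count 10, minimum total 15), scaled libraries by TMM and compared OFF with ON by its quasi-likelihood test with robust dispersions and no covariate. Benjamini-Hochberg adjustment ran across every tested row with a threshold of 0.05, the SE is the fold change divided by the square root of F, and 95% intervals are unadjusted. The steps were tested on simulated data. DESeq2 1.42.0 and limma 3.58.1 were alternatives. 1 count was worth 0.110 to 0.124 CPM, so a count of 0 allows up to 3 counts or at most 0.372 CPM; such limits cover counting error only, since these PCR reads carry no molecular identifiers. For 1 gene, an exact permutation of 3 against 3 libraries cannot give a two-sided p under 0.1, so the model's adjusted p is given. Replicates differed by more than sampling noise in each pair (chi-square per degree of freedom 6.88 to 40.5 in OFF and 3.00 to 9.38 in ON).

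The members and lists were chosen with earlier results of these data known, so lists are described by counts and medians only. Values in every library are given for the 3 genes with the smallest p in each role group and for the lowest and highest fold change; from other lists the 3 genes with the smallest p and called genes moving against the majority are named, save 1 gene that is not reported here; other genes named beside these were chosen after their values were seen. Positions and exon overlaps come from GENCODE M21 (GRCm38). Copies are rows sharing at least 100 different 50-base stretches with the last 500 bases of a member's transcripts. Protein sequences were not used here.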

Additional observations from a re-analysis of the deposited data

How the results depend on the processing

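The 15 alternatives to the main analysis included other scaling, filters, tests, the replicate number as a block, each library left out in turn, and near-copy rows added to their gene, the last chosen after seeing the data. No called member reversed. Of the 33 called members, 16 kept their call in every alternative that tested them (the 4 Ran cycle genes, Kpna1, Ipo4, Ipo5, Ipo7, Kpnb1, Tnpo2, Tnpo3, Xpo4, Xpot, Nup85, Nup153 and Nup160) and 17 lost it in at least 1. Of the 14 members not called, 4 were called in at least 1 alternative (Xpo5, Xpo7, Nup155 and Nup214). Members called lower numbered 28 by DESeq2, 22 by limma on the authors' values and 29 with library totals only, with no member higher in any alternative, and their median log2 fold change stayed between -0.53 and -0.42. With each library left out in turn, members lower ranged over 18 to 34; tested rows called lower ranged over 1678 to 2740 and higher over 1615 to 2704. The median of all tested rows stayed within 0.0315 of 0.

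Labels give both groups replicates 1 to 3, but same-numbered libraries did not deviate together (correlations 0.03, -0.08 and -0.05). With a replicate block, 29 members were lower, beside 16.3% of all tested rows, and 4 calls were lost. In that fit 1 nuclear envelope gene was lower in place of 2.

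Leaving out libraries in turn gave 4 to 8 other pore genes lower, 6 to 7 cofactors and adaptors lower, 4 to 10 mRNA export genes lower, 1 to 3 nuclear envelope genes lower and 2 to 3 higher, 1 to 3 SUMO genes lower and 0 to 1 higher, and 0 to 5 G2/M genes lower and 0 to 3 higher. By limma on the authors' values, mRNA export had 5 lower and 1 higher, the nuclear envelope 1 lower, SUMO 1 lower and G2/M 0 lower. A minimum of 10 CPM gave 1 mRNA export gene higher, and library totals only gave 1 nuclear envelope gene lower. The cause of these differences was not tested. With windows of 250 bases before the start only, CACGTG stood in 18.9% of tested member genes with a window. In the same windows it stood in 10.3% of tested genes and 12.5% of tested genes called lower. Depth limits members such as Ipo4, Kpna6 and Nup35, at 34 to 128 counts per library.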
